A study of Mus musculus with 2 samples.

Results

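Transport of amino acids across the membranes of the liver cell was examined through 36 genes of the solute carrier (Slc) families. They were taken by symbol, as a given list drawn from the Slc1, Slc3, Slc6, Slc7, Slc36, Slc38 and Slc43 families plus Slc16a10, and all 36 were found among the 35275 genes measured. Amino acids cannot cross the lipid bilayer unaided. Carriers of these families couple their entry to sodium or protons, exchange an inner amino acid for an outer one, or let them pass down their gradient, and several work as a light chain bound to a heavy chain. In hepatocytes they feed protein synthesis, gluconeogenesis, the urea cycle and glutathione synthesis, and the amino acids they bring in are sensed by the growth kinase complex mTORC1. The list is wider than the plasma membrane. Slc38a7, Slc38a9 and Slc36a1 are known at the lysosome, Slc6a8 carries creatine, Slc6a6 carries taurine, and human SLC43A3 carries nucleobases.

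RNA was sequenced from 2 livers of C57BL/6 mice aged 10 months, with 1 library per genotype. One library carries the label LTsc1KO, which stands for a knockout of Tsc1 restricted to the liver (genotype TSC1-/-), and the other the label wild type. The knockout removes an inhibitor of mTORC1 and is used as a model of liver cancer. The sources used here do not give the promoter that drives the deletion or the sex of the mice. The study's text speaks of tumours and both labels of liver, so whether a tumour nodule was taken is unknown. Tsc1 itself had an FPKM (reads scaled to transcript length and to library size) of 4.79 in the LTsc1KO-labelled library and 4.90 in the wild-type-labelled library, a ratio of 0.976 (interval 0.868 to 1.10), so it does not check the labels and every direction below rests on them. The totals recovered from the values were 29351163 reads in the LTsc1KO-labelled library and 27919645 in the wild-type-labelled library. No p-value can be had from 1 library a genotype. The intervals given are exact 95% intervals (Clopper-Pearson) computed on the reads; they hold the error of counting and not the differences between animals. The 7 hepatocyte markers found summed to an FPKM of 23574 in the LTsc1KO-labelled library and 34646 in the wild-type-labelled library, with none at 0. Of the 7, 3 were at least 2-fold lower in the LTsc1KO-labelled library and none at least 2-fold higher. Alb, albumin, was at 5534 in the LTsc1KO-labelled library and 14351 in the wild-type-labelled library. Ttr went the other way, at 5662 in the LTsc1KO-labelled library and 2833 in the wild-type-labelled library. So did Hnf4a by deposited FPKM, at 325 in the LTsc1KO-labelled library and 259 in the wild-type-labelled library. After the median rescaling described below, Hnf4a stood lower in the LTsc1KO-labelled library, at a log2 ratio of -0.39. Then 4 of the 7 hepatocyte markers were at least 2-fold lower and none at least 2-fold higher. All 12 skeletal muscle markers were at least 2-fold lower in the LTsc1KO-labelled library, with a summed FPKM of 2.72 there and 3714 in the wild-type-labelled library. Of these, Mb, Myh4, Myh1, Myh2 and Tnnt3 were listed at 0 in the LTsc1KO-labelled library and none in the other. Whether muscle RNA takes part in the transporter differences was not tested. In whole tissue, fewer cells of a type and less RNA per cell cannot be told apart.

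By FPKM alone, 28 of the 36 transporter genes stood higher in the LTsc1KO-labelled library and 8 lower. Ranked by log2(FPKM + 1), the glutamate carrier Slc1a1, the cystine exchanger Slc7a11, the uniporter Slc43a2, the creatine carrier Slc6a8 and the heavy chain Slc3a2 had the highest ratios. The major hepatic glutamine carrier Slc38a3 and the hepatic uniporter Slc43a1 stood lower. On this scale 14 of the 36 were at least 2-fold higher in the LTsc1KO-labelled library, 3 were at least 2-fold lower, and 19 lay between these limits. Of the 36, 29 reached an FPKM of 1 in at least 1 library and are called expressed, and the 14 and 3 are 48.3% and 10.3% of those. The other 7 (Slc1a3, Slc7a3, Slc7a6, Slc7a8, Slc7a9, Slc7a10 and Slc38a1) stayed below 1 in both libraries. Among all 12395 expressed genes 35.6% passed the higher limit and 6.15% the lower one. The median log2 ratio was 0.99 for the expressed transporters and 0.70 for all expressed genes. Slc1a1, Slc7a7, Slc7a11 and Slc7a1 passed the expression limit through the LTsc1KO-labelled library alone, which forces a difference. Among the 25 transporters that reached this limit in each library, 10 stood 2-fold or more higher and 3 lower (40% and 12%), against 31.8% and 4.86% of the 10067 such genes.

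These ratios rest on how the libraries are scaled. When the median ratio was set to 0, over genes that reach the limit in each library, the median log2 ratio of all expressed genes shifted by -0.63. Then 11 transporters stood 2-fold or more higher and 6 lower, and over all 11851 genes that still counted as expressed 15.6% were higher and 12.7% lower. All 11 were among the 14. Slc1a4, Slc6a13 and Slc38a10 no longer passed, and Slc1a2, Slc6a12 and Slc16a10 joined the lower ones. Values after this rescaling are given below as rescaled log2 ratios. Counts for groups of transporters and for related genes are to be read against 35.6% higher and 6.15% lower as deposited, and 15.6% and 12.7% when rescaled.

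**Figure D1:**
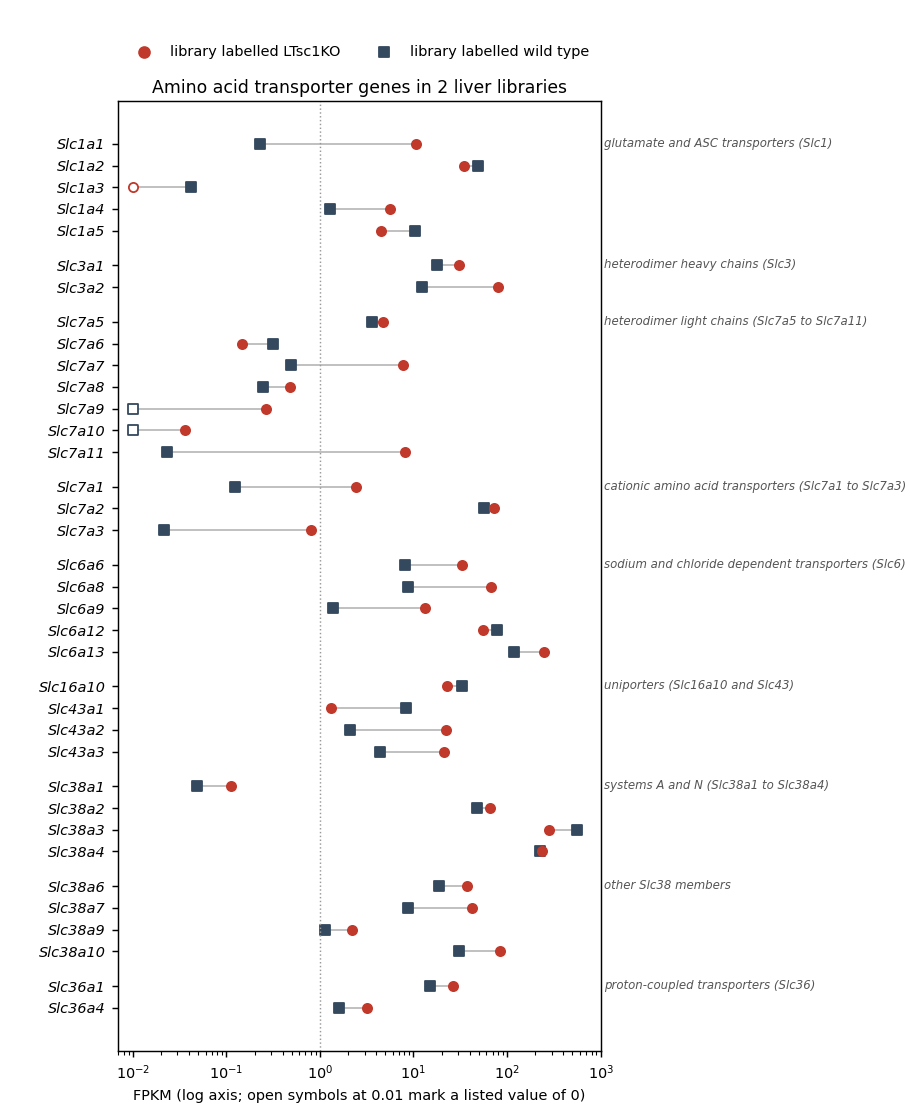
FPKM on a log axis of the 36 transporter genes, grouped by role, with circles for the LTsc1KO-labelled library and squares for the wild-type-labelled library (1 library each, so no error bars). Slc38a3, Slc38a4 and Slc6a13 are the 3 genes above 100 in both libraries, and the widest gap among genes above 0 in both is that of Slc7a11.

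The Slc1 family holds sodium-coupled carriers of glutamate and aspartate (Slc1a1, Slc1a2 and Slc1a3) and of small neutral amino acids (Slc1a4 and Slc1a5). Of its 4 expressed genes 2 stood 2-fold or more higher and 1 lower (1 and 2 after rescaling). Slc1a1, counted as higher on both scales, passed the expression limit through the LTsc1KO-labelled library alone, which forces a higher value there. Slc1a1 (ENSMUSG00000024935; chromosome 19, 28835049 to 28913960, plus strand, GRCm38) had an FPKM of 10.8 (692 reads) in the LTsc1KO-labelled library and 0.229 (14 reads) in the wild-type-labelled library. It was 47.0-fold higher (interval 27.8 to 86.5), the highest log2 ratio of the list at 3.26 (rescaled 2.62). Slc1a2, the glutamate carrier of pericentral hepatocytes, was at 35.0 in the LTsc1KO-labelled library and 48.6 in the wild-type-labelled library, a ratio of 0.720 (interval 0.676 to 0.766). Its log2 ratio was -0.46, and -1.15 when rescaled, past the limit. Beside it, 6 of 7 pericentral markers were at least 2-fold lower in the LTsc1KO-labelled library and none was at 0 in either, with a summed FPKM of 1182 there and 5738 in the wild-type-labelled library. Their part in the Slc1a2 value was not tested. Slc1a3 had 0 reads in the LTsc1KO-labelled library and 2 in the wild-type-labelled library, at or under the floor of 3 reads in both, so no ratio is given.

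The neutral carriers of this family stood on opposite sides. Slc1a4, which carries alanine, serine, cysteine and threonine, was at 5.62 (643 reads) in the LTsc1KO-labelled library and 1.29 (140 reads) in the wild-type-labelled library, 4.37-fold higher (3.63 to 5.28). Slc1a5, a glutamine exchanger, was at 4.49 (164 reads) in the LTsc1KO-labelled library and 10.4 (363 reads) in the wild-type-labelled library, 2.33-fold lower (1.93 to 2.82). On the log2 scale Slc1a4 stood at 1.53 (rescaled 0.95) and Slc1a5 at -1.06 (rescaled -1.62). With both libraries brought to equal FPKM totals Slc1a5 stood at -0.91 and did not pass the limit.

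Heavy chains carry their light chains to the cell surface. Slc3a2 (ENSMUSG00000010095; chromosome 19, 8706882 to 8723369, minus strand), also called CD98, is the partner of most Slc7 light chains. It had an FPKM of 80.0 in the LTsc1KO-labelled library and 12.4 in the wild-type-labelled library, 6.48-fold higher (5.78 to 7.26), with a log2 ratio of 2.60 (rescaled 1.90). Slc3a1, the partner of Slc7a9 in cystine uptake, was at 30.7 in the LTsc1KO-labelled library and 17.9 in the wild-type-labelled library. Its log2 ratio of 0.75 was 0.06 when rescaled by the median and -0.09 when scaled by the upper quartile. An exon of Slc3a1 overlaps one of Prepl, and reads there may not be assigned to 1 gene.

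The light chains give the heterodimer its substrate. Of the 7 listed, 3 were expressed and 2 of these, Slc7a11 and Slc7a7, were at least 2-fold higher on both scales. Both passed the expression limit through the LTsc1KO-labelled library alone, which forces a higher value there, though not a 2-fold one. Over all expressed genes 35.6% were higher as deposited and 15.6% after rescaling. Slc7a11, which takes up cystine in exchange for glutamate and so feeds glutathione synthesis, lies on chromosome 3 (ENSMUSG00000027737; 49892526 to 50443614, minus strand). It had an FPKM of 8.17 (743 reads) in the LTsc1KO-labelled library and 0.0231 (2 reads) in the wild-type-labelled library. The ratio was 353, with a counting interval of 97.5 to 2923 that is wide because of the 2 reads, and the log2 ratio was 3.16 (rescaled 2.55). Slc7a7, which exports cationic amino acids in exchange for neutral ones, was at 7.70 (484 reads) in the LTsc1KO-labelled library and 0.485 (29 reads) in the wild-type-labelled library, 15.9-fold higher (10.9 to 24.0) with a log2 ratio of 2.55 (rescaled 1.94). Slc7a7 has an exon that overlaps Oxa1l. Macrophages also express Slc7a7. Of 6 expressed macrophage markers 2 were at least 2-fold higher and 1 lower (1 and 1 after rescaling). The summed FPKM over the 8 markers was 114 in the LTsc1KO-labelled library and 44.2 in the wild-type-labelled library, with none at 0. Among these the defining Kupffer cell marker Clec4f was at 11.7 in the LTsc1KO-labelled library and 13.5 in the wild-type-labelled library. Cd68, the highest of the 8 in the LTsc1KO-labelled library, was at 52.3 there and 1.32 in the wild-type-labelled library. Marco, the marker at least 2-fold lower, was at 0.505 in the LTsc1KO-labelled library and 3.37 in the wild-type-labelled library. Their part in the Slc7a7 value was not tested.

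The remaining light chains were low or differed little. Slc7a5, the carrier of leucine and other large neutral amino acids, was at 4.67 (197 reads) in the LTsc1KO-labelled library and 3.57 (143 reads) in the wild-type-labelled library, a ratio of 1.31 (1.05 to 1.64). Its log2 ratio was 0.31 as deposited but -0.25 when rescaled by the median and -0.37 by the upper quartile, so its direction follows the scaling. Slc7a8 was at 0.482 in the LTsc1KO-labelled library and 0.249 in the wild-type-labelled library, and Slc7a6 at 0.146 in the LTsc1KO-labelled library and 0.317 in the wild-type-labelled library, where the interval of the ratio, 0.153 to 1.16, includes 1. Slc7a9 had 11 reads in the LTsc1KO-labelled library and 0 in the wild-type-labelled library, at least 3.49-fold higher against a floor of 3 reads in that library. Slc7a10 had 1 read in the LTsc1KO-labelled library and 0 in the wild-type-labelled library, too few for a ratio. FPKM is a level per length, so genes may be compared only as far as the lengths used fit the transcripts present, which was not checked. The recovered length was 2142 bases for Slc7a7 against an annotated mean of 1123, and 3097 for Slc7a11 against 3592. For Slc7a5 it was 1436, the annotated mean itself. The shares and sums below carry this limit. The light chains that pair with Slc3a2 summed to an FPKM of 21.2 in the LTsc1KO-labelled library and 4.64 in the wild-type-labelled library. Slc7a11 made up 38.5% of that sum in the LTsc1KO-labelled library and 0.498% in the wild-type-labelled library, Slc7a7 36.3% in the LTsc1KO-labelled library and 10.5% in the wild-type-labelled library, and Slc7a5 22.0% in the LTsc1KO-labelled library and 76.9% in the wild-type-labelled library. The level of Slc3a2 was 3.77 times that sum in the LTsc1KO-labelled library and 2.66 times in the wild-type-labelled library.

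**Figure D2:**
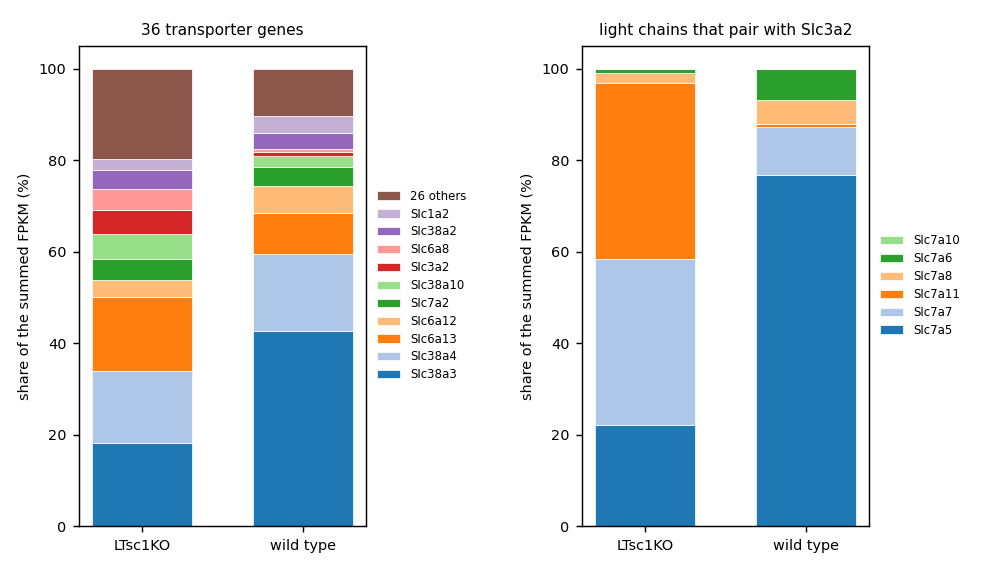
Shares, in percent, of the summed FPKM of all 36 transporter genes (left) and of the light chains that pair with Slc3a2 (right), with the LTsc1KO-labelled library left of the wild-type-labelled library. Slc38a3 takes 18.3% of the left bar in the LTsc1KO-labelled library and 42.6% in the wild-type-labelled library, and Slc7a11 takes 38.5% of the right bar in the LTsc1KO-labelled library and 0.498% in the wild-type-labelled library.

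Several transporter genes are known targets of ATF4, the transcription factor induced when amino acids are short, which binds C/EBP-ATF response elements. Promoter windows of 250 bases before to 50 bases after the start were available from RefSeq (GRCm38.p6) for 27 of the 36 genes, and were searched on both strands for TGATGNAA, a core of that element. It occurred in 3 of the 27 (11.1%), Slc7a11, Slc7a7 and Slc1a4, and in 4.51% of the 27025 genes with a window. A gene may have several windows: the 27 genes have 45 and the 27025 genes 32851. The transporters thus had more windows per gene in which a match could occur. The shares per gene, here and for the other motifs below, are therefore not like for like. All 3 are among the genes at least 2-fold higher in the LTsc1KO-labelled library, as were 35.6% of all expressed genes. Slc7a11 and Slc7a7 had to differ, having passed the expression limit through that library alone, and Slc1a4 did not pass after the rescaling. Their windows are shown because each holds the motif beside a gene described above, 5′ to 3′ on the strand of the gene, with the matches in capitals.

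Slc7a11, chr3:50443564-50443863, minus strand: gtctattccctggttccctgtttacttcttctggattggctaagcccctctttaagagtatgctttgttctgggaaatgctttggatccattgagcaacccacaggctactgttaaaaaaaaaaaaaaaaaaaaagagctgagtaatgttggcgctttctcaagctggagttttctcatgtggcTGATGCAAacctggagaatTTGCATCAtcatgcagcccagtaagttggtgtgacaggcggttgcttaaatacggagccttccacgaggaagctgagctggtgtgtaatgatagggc

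Slc1a4, chr11:20332664-20332963, minus strand: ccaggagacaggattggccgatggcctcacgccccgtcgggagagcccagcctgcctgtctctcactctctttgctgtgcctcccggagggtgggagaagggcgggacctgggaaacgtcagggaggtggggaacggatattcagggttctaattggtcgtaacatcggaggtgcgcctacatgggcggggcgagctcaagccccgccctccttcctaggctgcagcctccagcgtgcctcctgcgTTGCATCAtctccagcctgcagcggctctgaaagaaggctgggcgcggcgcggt

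Slc7a7, chr14:54417895-54418194, minus strand: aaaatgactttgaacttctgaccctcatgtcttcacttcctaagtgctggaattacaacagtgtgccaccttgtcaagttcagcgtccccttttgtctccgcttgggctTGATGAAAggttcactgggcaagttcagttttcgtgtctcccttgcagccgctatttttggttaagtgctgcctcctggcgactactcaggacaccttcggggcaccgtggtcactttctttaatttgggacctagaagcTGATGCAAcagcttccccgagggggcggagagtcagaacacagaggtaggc

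In Slc7a11 the 2 matches lie on opposite strands at bases -66 to -59 and -47 to -40 from the start. The match of Slc1a4 is read on the opposite strand and spans the start, from -4 to 4. In Slc7a7 one match lies at -141 to -134 and the other spans the start, from -1 to 7, of the RefSeq start farthest upstream, which lies outside the GENCODE M21 transcripts; a second start of Slc7a7 lies downstream, and its window holds the match at the start again at -243 to -236. A match is a description of letters and no evidence of binding. TGACNNNGC, a core of the antioxidant response element bound by NRF2, occurred in 7 of 27 (25.9%; 14.0% of all genes): Slc7a6, Slc7a1, Slc6a9, Slc6a13, Slc43a1, Slc38a2 and Slc36a1. It was not among the matches of Slc7a11. CACGTG, the E-box bound by MYC and by TFEB and TFE3, occurred in 3 of 27 (11.1%; 8.09% of all genes): Slc43a1, Slc38a7 and Slc36a1, with 2 matches in Slc36a1, one of which overlaps by position the antioxidant response element match there. The genes with these 2 motifs included Slc43a1, the lowest ratio of the list.

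**Figure D3:**
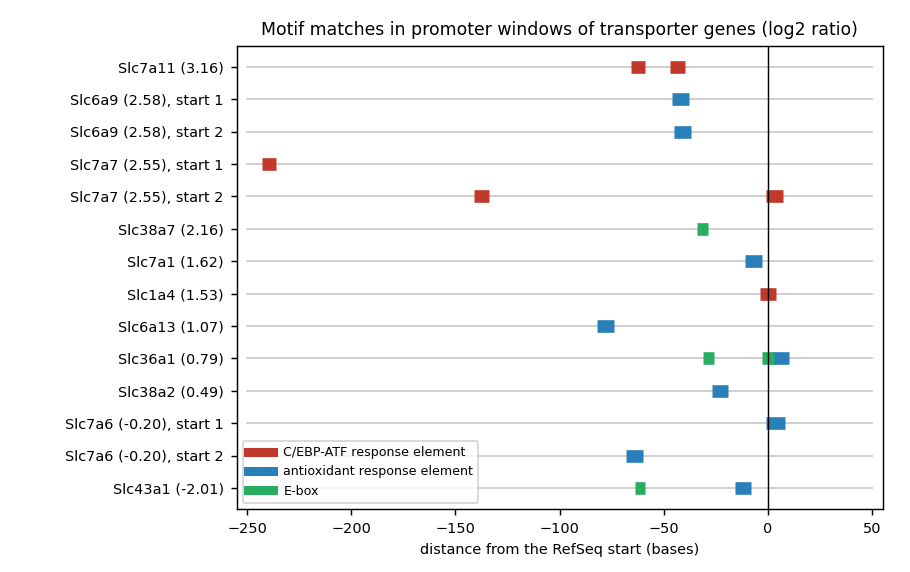
Distance in bases from the RefSeq start of each motif match in the promoter windows of transporter genes that hold at least 1 match, ordered by log2 ratio, LTsc1KO over wild type (in brackets). The C/EBP-ATF matches (red) are in 3 genes with ratios of 1.53 to 3.16. Of these, Slc7a11 and Slc7a7 passed the expression limit through the LTsc1KO-labelled library alone, and Slc1a4 stood at 0.95 when rescaled. Antioxidant response element (blue) and E-box (green) matches are in genes from -2.01 to 2.58. Sequence outside the windows was not searched.

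Cationic amino acid transporters carry arginine and lysine. Slc7a1 (ENSMUSG00000041313; chromosome 5, 148327410 to 148399904, minus strand), the form of most tissues other than liver, had an FPKM of 2.46 (232 reads) in the LTsc1KO-labelled library and 0.123 (11 reads) in the wild-type-labelled library, 20.1-fold higher (11.0 to 40.7) with a log2 ratio of 1.62 (rescaled 1.15). Slc7a2, the form of the hepatocyte, was far more abundant in both, at 72.0 in the LTsc1KO-labelled library and 57.3 in the wild-type-labelled library. Its ratio was 1.26 (1.22 to 1.29), and its log2 ratio of 0.32 was -0.38 when rescaled by the median and -0.54 by the upper quartile. Slc7a3 had 39 reads in the LTsc1KO-labelled library and 1 in the wild-type-labelled library, a ratio of 37.1 (6.28 to 1502), but stayed below an FPKM of 1.

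The Slc6 carriers use sodium and chloride, and 4 of 5 were at least 2-fold higher in the LTsc1KO-labelled library, or 3 with 1 lower after rescaling, against 35.6% of all expressed genes as deposited and 15.6% higher and 12.7% lower after rescaling. Slc6a8, the creatine carrier (ENSMUSG00000019558; chromosome X, 73673150 to 73682502, plus strand), was at 67.8 (3361 reads) in the LTsc1KO-labelled library and 8.74 (412 reads) in the wild-type-labelled library, 7.76-fold higher (7.0 to 8.62). Slc6a9, a glycine carrier, was at 13.3 (591 reads) in the LTsc1KO-labelled library and 1.39 (59 reads) in the wild-type-labelled library, 9.53-fold higher (7.28 to 12.7), although exons of B4galt2, Ccdc24 and Gm17114 overlap its own. Slc6a6, the taurine carrier, was at 33.2 in the LTsc1KO-labelled library and 8.14 in the wild-type-labelled library, 4.07-fold higher (3.55 to 4.67). The rescaled log2 ratios of these genes were 2.12, 1.92 and 1.21 for Slc6a8, Slc6a9 and Slc6a6, all past the limit.

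Slc6a12 and Slc6a13 are neighbours on chromosome 6, on the same strand and 5.34 kb apart with no protein-coding gene between. Slc6a13, a carrier of GABA and taurine in liver (121300227 to 121337733), was at 249.9 (8818 reads) in the LTsc1KO-labelled library and 119 (3978 reads) in the wild-type-labelled library, 2.11-fold higher (2.03 to 2.19). Slc6a12, a carrier of betaine and GABA (121343076 to 121365775), was at 54.9 (1844 reads) in the LTsc1KO-labelled library and 78.5 (2508 reads) in the wild-type-labelled library, a ratio of 0.699 (0.658 to 0.743). The log2 ratios were 1.07 for Slc6a13 and -0.51 for Slc6a12, or 0.36 and -1.21 when rescaled, so the pair lay on opposite sides of 0 on both scales. Slc43a1 and Slc43a3 on chromosome 2, with Rtn4rl2 as the protein-coding gene between them, lay 73.0 kb apart and also had opposite signs, at -2.01 and 2.02. The neighbours Slc38a1, Slc38a2 and Slc38a4 on chromosome 15 had positive log2 ratios as deposited, whereas Slc38a2 and Slc38a4 were negative when rescaled.

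Uniporters let amino acids pass down their gradient, and of the 4 listed 2 stood 2-fold or more higher and 1 lower (2 and 2 after rescaling). Slc43a1 (ENSMUSG00000027075; chromosome 2, 84838850 to 84863594, plus strand), which carries branched-chain amino acids and is typical of liver, was at 1.32 (98 reads) in the LTsc1KO-labelled library and 8.39 (591 reads) in the wild-type-labelled library. It was 6.34-fold lower (5.11 to 7.93), with the lowest log2 ratio of the list at -2.01 (rescaled -2.38). Its relative Slc43a2, which carries the same kind of amino acids, was at 22.3 (1443 reads) in the LTsc1KO-labelled library and 2.08 (128 reads) in the wild-type-labelled library, 10.7-fold higher (8.95 to 13.0) with a log2 ratio of 2.92 (rescaled 2.24). The order of these relatives by level was therefore Slc43a2 above Slc43a1 in the LTsc1KO-labelled library and Slc43a1 above Slc43a2 in the wild-type-labelled library. Slc43a3, the neighbour of Slc43a1 (84936579 to 84958509), was at 21.0 (739 reads) in the LTsc1KO-labelled library and 4.42 (148 reads) in the wild-type-labelled library, 4.75-fold higher (3.98 to 5.71) with a log2 ratio of 2.02 (rescaled 1.35). Slc16a10, a carrier of aromatic amino acids, was at 22.8 in the LTsc1KO-labelled library and 33.3 in the wild-type-labelled library, with a log2 ratio of -0.53 (rescaled -1.20).

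The sodium-coupled Slc38 carriers of systems A and N were the most abundant group, with 38.2% of the summed FPKM of the list in the LTsc1KO-labelled library and 63.0% in the wild-type-labelled library. Slc38a3, the system N carrier that moves glutamine, histidine and asparagine (ENSMUSG00000010064; chromosome 9, 107650634 to 107669530, minus strand), was at 279.6 (22448 reads) in the LTsc1KO-labelled library and 566 (43222 reads) in the wild-type-labelled library. It was 2.02-fold lower (1.99 to 2.06), with a log2 ratio of -1.01 (rescaled -1.73), just past the limit as deposited and inside it, at -0.84, with equal FPKM totals. Slc38a4, a system A carrier typical of liver, was at 238 in the LTsc1KO-labelled library and 225 in the wild-type-labelled library. Its ratio of 1.06 (1.04 to 1.08) gave a log2 ratio of 0.08 that was -0.63 when rescaled by the median and -0.79 by the upper quartile. Slc38a2, the system A carrier induced by amino acid shortage, was at 66.4 in the LTsc1KO-labelled library and 47.2 in the wild-type-labelled library, a log2 ratio of 0.49 that was -0.22 and -0.37 on the same scales. Slc38a1 was at 0.111 (24 reads) in the LTsc1KO-labelled library and 0.0487 (10 reads) in the wild-type-labelled library. By FPKM alone Slc38a1 was 2.28-fold higher (1.05 to 5.35) at a level below 1, and none of Slc38a1 to Slc38a4 passed the higher limit on log2(FPKM + 1), as deposited or with any of the scalings used.

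The other members of Slc38 and the proton-coupled Slc36 carriers all stood higher by FPKM in the LTsc1KO-labelled library. Slc38a7, a lysosomal exporter of glutamine (ENSMUSG00000036534; chromosome 8, 95835920 to 95853539, minus strand), was at 42.4 (1906 reads) in the LTsc1KO-labelled library and 8.69 (372 reads) in the wild-type-labelled library, 4.87-fold higher (4.36 to 5.46) with a log2 ratio of 2.16 (rescaled 1.47). Slc38a9, the lysosomal arginine sensor upstream of mTORC1, was at 2.19 (156 reads) in the LTsc1KO-labelled library and 1.14 (78 reads) in the wild-type-labelled library, 1.92-fold higher (1.44 to 2.53) with a log2 ratio of 0.58 (rescaled 0.12), within the 2-fold limit. Slc38a10 was at 83.6 in the LTsc1KO-labelled library and 30.6 in the wild-type-labelled library, with a log2 ratio of 1.42 (rescaled 0.72), and Slc38a6 at 37.7 in the LTsc1KO-labelled library and 18.5 in the wild-type-labelled library, with a log2 ratio of 0.99 just under the limit (rescaled 0.30). Slc36a1, a lysosomal exporter of small amino acids, had a log2 ratio of 0.79, which was 0.11 when rescaled by the median and -0.04 by the upper quartile. Slc36a4 was at 3.18 in the LTsc1KO-labelled library and 1.62 in the wild-type-labelled library, with a log2 ratio of 0.68 (rescaled 0.17).

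**Figure D4:**
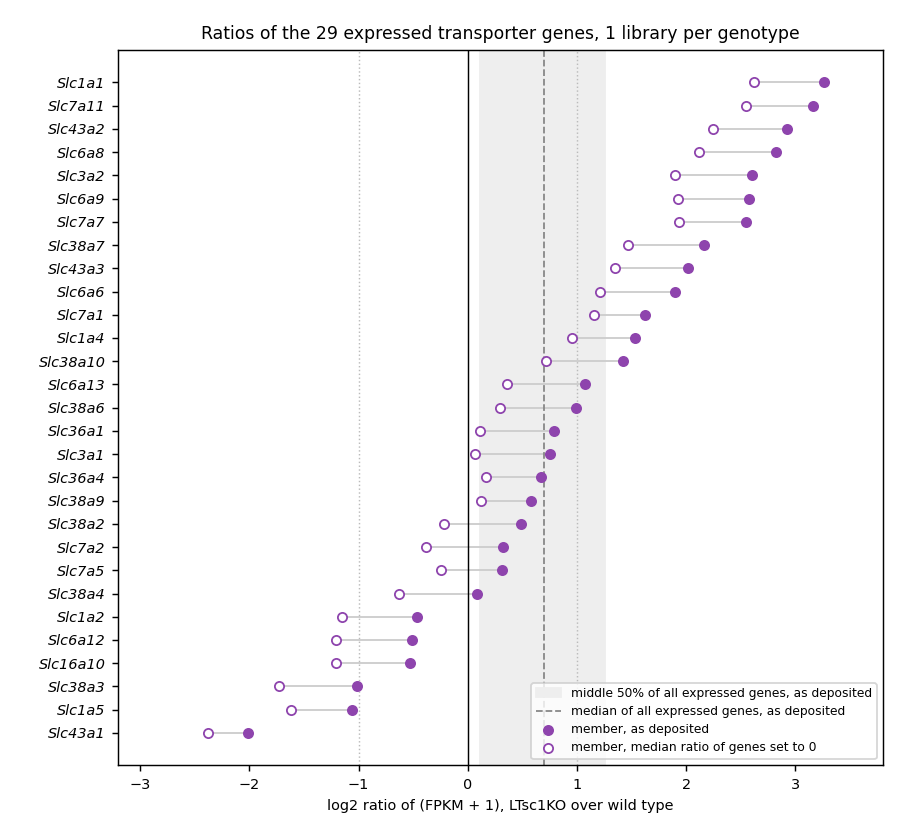
Log2 ratio of (FPKM + 1), LTsc1KO over wild type, of the 29 expressed transporter genes, as deposited (filled) and with the median ratio of genes set to 0 (open), over the range between the quartiles of all expressed genes (grey) and their median of 0.70 (dashed). Dotted lines mark the 2-fold limits; the ratios run from -2.01 for Slc43a1 to 3.26 for Slc1a1.

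The 36 genes summed to an FPKM of 1529.6 in the LTsc1KO-labelled library and 1330.0 in the wild-type-labelled library, a ratio of 1.15 that was 0.70 with the median rescaling and 0.626 with upper quartile scaling. The direction of the sum therefore follows the scaling, while shares within a library do not change with it. Slc38a3 and Slc38a4 together made up 33.8% of that sum in the LTsc1KO-labelled library and 59.5% in the wild-type-labelled library, whereas Slc6a13 made up 16.3% in the LTsc1KO-labelled library and 8.91% in the wild-type-labelled library. In the LTsc1KO-labelled library 20 of the genes reached an FPKM of 10, against 14 in the wild-type-labelled library. By level in the wild-type-labelled library, 7 of 11 transporters at 1 to 10 stood 2-fold or more higher in the LTsc1KO-labelled library and 1 lower, against 36.7% and 5.09% of all genes at that level. At 10 to 100 it was 2 of 11 higher and 1 lower, against 25.6% and 6.8%. At 100 or more it was 1 of 3 higher and 1 lower, against 8.51% and 23.2%. Below 1 all 4 that count as expressed stood 2-fold or more higher, against 66.7% of all genes at that level. There the expression limit forces a higher value in the LTsc1KO-labelled library, though not a 2-fold one.

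Related genes outside the list were described from lists chosen for this purpose. Of 27 further members of the same families only 2 were expressed. Slc6a19, the sodium-dependent neutral amino acid carrier of gut and kidney, had 137 reads in the LTsc1KO-labelled library and 2 in the wild-type-labelled library, a ratio of 65.2 (17.7 to 543), and Slc7a4 stood at a log2 ratio of 0.44. Among lysosomal amino acid and peptide transporters of other families 6 of 7 expressed genes stood 2-fold or more higher with none lower, or 4 and none after rescaling. Cln3, a lysosomal membrane protein, was at 79.5 in the LTsc1KO-labelled library and 7.37 in the wild-type-labelled library, and the nucleoside carrier Slc29a3, the cysteine importer Mfsd12 and the cystine exporter Ctns stood at log2 ratios of 2.17, 1.92 and 1.71. A further list held genes of amino acid sensing upstream of mTORC1, both sensors and genes that relay their signal, such as those of Rag GTPases. Of its 15 expressed genes 6 were higher and none lower, or 5 and none after rescaling. Over all expressed genes 35.6% were higher as deposited and 15.6% after rescaling. The median log2 ratio of this list as deposited, 0.72, lies near the 0.70 of all genes. Sesn3 and Sesn2, of which sestrin 2 is a leucine sensor, stood at 2.95 and 2.67, and the Rag GTPases Rragd and Rragc at 3.98 and 1.82.

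Of 15 expressed regulators of the amino acid response, 6 stood 2-fold or more higher and 1 lower on both scales, where as deposited 35.6% of all expressed genes were higher and 6.15% lower. The pseudokinase Trib3 stood at 5.72, Atf3 at 3.03, Ddit3 at 2.84 and the kinase gene Eif2ak3 at 2.12, with Cebpb the other way at -1.58. Atf4 itself, which is controlled largely through translation, was at 147 in the LTsc1KO-labelled library and 82.0 in the wild-type-labelled library, a log2 ratio of 0.83 (rescaled 0.12). Nfe2l2, which encodes NRF2, stood at 1.96 (rescaled 1.26). Among genes of transporter partners and ubiquitin ligases 7 of 10 were higher and none lower, or 4 and 1 after rescaling. Laptm4b, which in human cells recruits the Slc3a2 and Slc7a5 heterodimer to lysosomes, was at 121 in the LTsc1KO-labelled library and 5.02 in the wild-type-labelled library, and Cd44, a human variant of which stabilises SLC7A11 at the surface, at 30.6 in the LTsc1KO-labelled library and 0.846 in the wild-type-labelled library. Tmem199 and the lactate carrier Slc16a1 stood at 2.08 and 2.04.

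Markers of dividing cells and of other cell types differed alongside the transporters. All 8 proliferation markers stood 2-fold or more higher on both scales, with a summed FPKM of 487 in the LTsc1KO-labelled library and 26.7 in the wild-type-labelled library. Of 6 expressed cholangiocyte markers 5 stood higher and none lower (2 and none after rescaling). Among them Krt19, a keratin of bile duct cells, was at 2.46 in the LTsc1KO-labelled library and 0.328 in the wild-type-labelled library. Of 8 periportal hepatocyte markers 2 stood higher and 3 lower (2 and 6 after rescaling), with sums of 4219 in the LTsc1KO-labelled library and 4926 in the wild-type-labelled library. Into these sums goes Hsd17b13, at 1424 in the LTsc1KO-labelled library and 204 in the wild-type-labelled library. Apart from Hsd17b13 and Cdh1, every periportal marker stood lower in the LTsc1KO-labelled library by FPKM. Of the expressed stellate cell markers 2 of 6 stood higher and 3 lower (1 and 3 after rescaling). Des, which skeletal muscle also expresses, was at 0.462 in the LTsc1KO-labelled library and 152 in the wild-type-labelled library; it was singled out after its values were seen, and the other 7 markers summed to 30.6 in the LTsc1KO-labelled library and 38.3 in the wild-type-labelled library. Endothelial markers stood higher in 2 of 5 cases as deposited and in none after rescaling, and their sums were 39.6 in the LTsc1KO-labelled library and 20.9 in the wild-type-labelled library. Most of each sum was Stab2, at 28.3 in the LTsc1KO-labelled library and 13.2 in the wild-type-labelled library. By FPKM alone Clec4g, Lyve1, Fcgr2b and Oit3 also stood higher in the LTsc1KO-labelled library, whereas Pecam1, Kdr and Cdh5 stood lower. Erythroid markers stood lower in 4 of 6 cases (5 after rescaling), and their sums were 73.7 in the LTsc1KO-labelled library and 783 in the wild-type-labelled library. For neutrophils it was 4 of 7 (6 after rescaling), with sums of 67.6 in the LTsc1KO-labelled library and 142 in the wild-type-labelled library. No T or B cell marker was expressed. Of 8 pancreatic acinar markers 2 were expressed, with 1 higher. The part of these cells in the transporter values was not tested.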

How the data were processed

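RNA sequencing gave 1 liver library per genotype. The authors deposited FPKM, 1 value per gene and library, per the file headers. Livers were flash frozen and RNA was purified on RNeasy columns, per the labels' protocols. CASAVA 1.7, Bowtie 0.12.2 and the build mm8 are named in the submitters' processing notes. The sources used here give no counting tool, annotation, strandedness or rule for reads with several matches, so overlapping genes and close copies are uncertain; 11 of the 36 transporter genes have an exon that overlaps another gene's, namely Slc1a1, Slc1a2, Slc3a1, Slc7a7, Slc7a10, Slc7a2, Slc6a6, Slc6a9, Slc43a2, Slc38a9 and Slc38a10. Of 35275 Ensembl gene IDs 34490 (97.8%) matched a symbol of GENCODE M21, and values of the 3 symbols on more than 1 ID were summed. Coordinates are those of GENCODE M21 on GRCm38 and were not taken from the deposited values.

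Totals were recovered from genes with 1 read in each library. Reads of a gene were then the whole numbers, within 0.0005 of a read, that both values gave at the transcript length nearest to the annotated mean. This succeeded for 31 of the 36 genes, 14 of them at the annotated mean itself; for the other 5 (Slc3a2, Slc7a6, Slc6a6, Slc16a10 and Slc38a9) reads are estimates at the annotated length. No count test was used. The comparison was log2((FPKM + 1)/(FPKM + 1)), LTsc1KO over wild type, with a pseudocount of 1, a minimum FPKM of 1 in at least 1 library and a 2-fold limit; it understates differences of low genes, and folds with intervals carry no pseudocount. The floor is 3 reads per library, an FPKM of 0.0511 in the LTsc1KO-labelled library and 0.0537 in the wild-type-labelled library for a transcript of 2 kb.

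The members and lists were chosen with earlier results of these data known. Every member is reported; from each related list the 4 expressed genes with the largest absolute log2 ratio and any opposite gene of at least 2-fold are named, and Atf4, Nfe2l2, Clec4f, Cd68 and single markers were added after their values were seen. Listed genes without a row under their symbol were not analysed here. A listed marker gene is not reported here. Alternatives were other pseudocounts, filters, limits and scalings and another treatment of repeated symbols. The computation was tested on simulated data. The software was Python 3.11.15 with scipy 1.17.1, pandas 2.3.3 and numpy 2.4.6, and matplotlib 3.10.9 for figures.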

Additional observations from a re-analysis of the deposited data

How the results depend on the processing

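No paired analysis was possible because each genotype has 1 library, and for the same reason no library could be left out. The count of transporter genes at least 2-fold higher in the LTsc1KO-labelled library, 14 as deposited, was 11 to 15 under all alternatives except a 4-fold limit, where it was 9. The count of lower genes, 3 as deposited, was 1 with equal FPKM totals, 6 with the median ratio set to 0, 6 with upper quartile scaling and 1 at the 4-fold limit, and 2 or 3 with pseudocounts of 0.1 and 5, with no filter, with a minimum FPKM of 5 or with the highest value per repeated name. The median log2 ratio of expressed members, 0.99, was 0.66 with a pseudocount of 5, 0.71 with no filter, 1.16 with equal FPKM totals, 0.30 with the median ratio set to 0 and 0.14 with upper quartile scaling; that of all genes was 0.42, 0.22, 0.85, 0.07 and -0.08 under the same settings. These shifts follow from the scaling factor, the pseudocount or the set of genes used. The sign of the log2 ratio changed for 4 of the 29 expressed transporters with the median ratio set to 0, for 6 with upper quartile scaling and for 0 with equal totals; none of these passed the 2-fold limit as deposited. Depth limits the ratios of Slc7a11 and Slc7a3, which rest on 2 reads and 1 read in the wild-type-labelled library, and none of the intervals covers differences between animals.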
